A study of Mus musculus with 8 samples.

Results

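The MYC network is a set of basic helix-loop-helix leucine zipper transcription factors that pair through MAX or MLX and compete for E-box DNA. It was taken here as the 9 genes Myc, Max, Mxd1, Mxd3, Mxd4, Mxi1, Mnt, Mga and Mlx, found by symbol among the 35072 genes of the deposited table. All 9 were present and all 9 passed the filter on low counts. They were measured by polyA RNA sequencing in CD8 T cells from spleen and lymph nodes of wildtype mice. The 4 formate libraries came from cells given 2 mM formate for 24 h, and the 4 PBS libraries from cells given the vehicle for the same time. All cells of both groups had first been activated as naive cells over 18 h by antibodies against CD3 and CD28, with interleukin-12 present, and no library of resting cells is in the comparison. The labels do not say whether the libraries of a group came from separate mice or cultures, and p-values therefore measure the spread between these libraries, which may be technical.

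MYC binds E-boxes only as a partner of MAX, and MYC-MAX dimers raise transcription of genes for growth and metabolism. The MXD proteins (MXD1, MXD3, MXD4 and MXI1, also called MXD2) and MNT take the place of MYC on MAX and bring SIN3 and histone deacetylase corepressors to the same sites. MGA also pairs with MAX, within a variant Polycomb complex, and MLX is a second hub, which pairs with MLXIP, MLXIPL, MXD1, MXD4 and MNT. In T cells MYC is induced by antigen receptor signalling and drives the growth of the activated cell, while several MXD genes are known from resting or differentiating cells.

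The libraries held between 29361986 and 38010357 estimated counts with formate and between 30275374 and 41393093 with PBS. Levels are given as CPM, counts scaled to the library total with TMM normalisation, and at this depth 3 counts equal at most 0.101 CPM. Cd8a had 550.0 ± 68.6 CPM with formate and 550.3 ± 58.0 CPM with PBS, and Cd4 had 4.60 ± 2.02 and 4.74 ± 1.30 CPM (SD, n = 4 each). The library titles carry codes that run in neighbours, each made of 1 formate and 1 PBS library (codes 1 and 2, 7 and 8, 10 and 11, 13 and 14). The libraries with codes 10 to 14 stood apart from those with codes 1 to 8 on the first principal component, which held 51.2% of the variance and did not follow the treatment. Formate 1 and 2 and PBS 1 and 2 are the libraries with codes 10 to 14, and formate 3 and 4 and PBS 3 and 4 those with codes 1 to 8. No label says what the codes stand for, so results are given both without a pairing term (the unpaired fit) and with neighbouring codes as pairs (the paired fit).

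RefSeq promoter windows, 250 bases before to 50 after a start site, were at hand for 8 of the 9 members (GRCm38.p6), and those of 4 members contained CACGTG, the E-box that dimers of this network bind. It is a palindrome and so reads the same on both strands. The 4 windows are shown because they carry, in genes of the network itself, the letters that the network's dimers bind, which are in capitals. The Max window is chr12:76962199-76962498 (minus strand), with the E-box starting 3 bases before the start site. The Mlx window is chr11:101087040-101087339 (plus strand, 40 bases before), the Mnt window chr11:74830674-74830973 (plus strand, 123 before) and the Mxd4 window chr5:34187661-34187960 (minus strand, 219 before).
Max: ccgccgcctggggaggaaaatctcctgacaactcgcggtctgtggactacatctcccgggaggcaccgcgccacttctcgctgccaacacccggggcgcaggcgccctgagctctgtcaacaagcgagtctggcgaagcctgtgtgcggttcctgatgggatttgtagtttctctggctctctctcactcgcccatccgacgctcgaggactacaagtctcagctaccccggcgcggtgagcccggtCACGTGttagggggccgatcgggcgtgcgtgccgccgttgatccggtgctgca
Mlx: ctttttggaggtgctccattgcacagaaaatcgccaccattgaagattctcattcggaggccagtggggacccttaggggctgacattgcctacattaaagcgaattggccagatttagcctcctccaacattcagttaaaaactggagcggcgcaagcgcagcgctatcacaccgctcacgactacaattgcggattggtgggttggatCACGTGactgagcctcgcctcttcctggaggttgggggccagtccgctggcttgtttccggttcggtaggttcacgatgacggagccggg
Mnt: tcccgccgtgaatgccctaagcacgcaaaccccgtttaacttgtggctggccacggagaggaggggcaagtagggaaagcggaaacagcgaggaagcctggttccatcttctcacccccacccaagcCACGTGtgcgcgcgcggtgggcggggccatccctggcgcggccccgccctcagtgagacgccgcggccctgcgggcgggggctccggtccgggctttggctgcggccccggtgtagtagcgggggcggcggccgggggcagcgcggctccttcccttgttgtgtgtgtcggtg
Mxd4: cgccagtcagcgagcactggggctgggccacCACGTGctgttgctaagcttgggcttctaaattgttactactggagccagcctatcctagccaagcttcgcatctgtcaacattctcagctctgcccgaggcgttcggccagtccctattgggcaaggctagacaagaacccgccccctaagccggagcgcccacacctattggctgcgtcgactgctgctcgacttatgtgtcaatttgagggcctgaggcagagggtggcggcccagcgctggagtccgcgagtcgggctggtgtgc

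CACGTG was found in 7.15% of 32851 RefSeq windows of this length. The windows of Mxd1, Mxd3, Mxi1 (3 windows) and Mga did not hold these letters. The variant CACGCG, searched on both strands, was present in 9.27% of all windows and, among the members, in that of Mga. The members with CACGTG in the window had log2 changes of either sign with formate (Max and Mnt below 0, Mlx and Mxd4 above), and a match is a description of the letters only.

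The ratio of formate to PBS in the unpaired fit lay between 0.879 (Mxi1) and 1.14 (Mga) for the 9 members, and Max, the common partner, was the member that passed, in the paired fit alone. In the unpaired fit 0 of the 9 members passed an adjusted p of 0.05 (edgeR quasi-likelihood test, Benjamini-Hochberg over 13299 genes), 0 had a p under 0.05 before adjustment, and DESeq2 also called 0. In the edgeR fit 0.00752% of all genes tested were called, and 4.77% had a p under 0.05 before adjustment. In the paired fit 1 of 9 passed, Max, which fell, where 12.9% of all genes were called, 5.35% higher and 7.52% lower. Before adjustment 4 members (Max, Mxd1, Mnt and Mga) had a p under 0.05 in the paired fit, as had 28.3% of all genes. No member had group ranges that did not overlap, which 4.29% of all genes had. The median log2 change over the members was -0.07 unpaired and -0.06 paired, and that over all genes tested -0.0080 and -0.0031. The paired calls over all genes were 711 higher and 1000 lower, against 1048 and 539 with library size as the only scaling, 832 and 736 with upper quartile scaling and 459 and 1025 with offsets for transcript GC content.

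**Figure D1:**
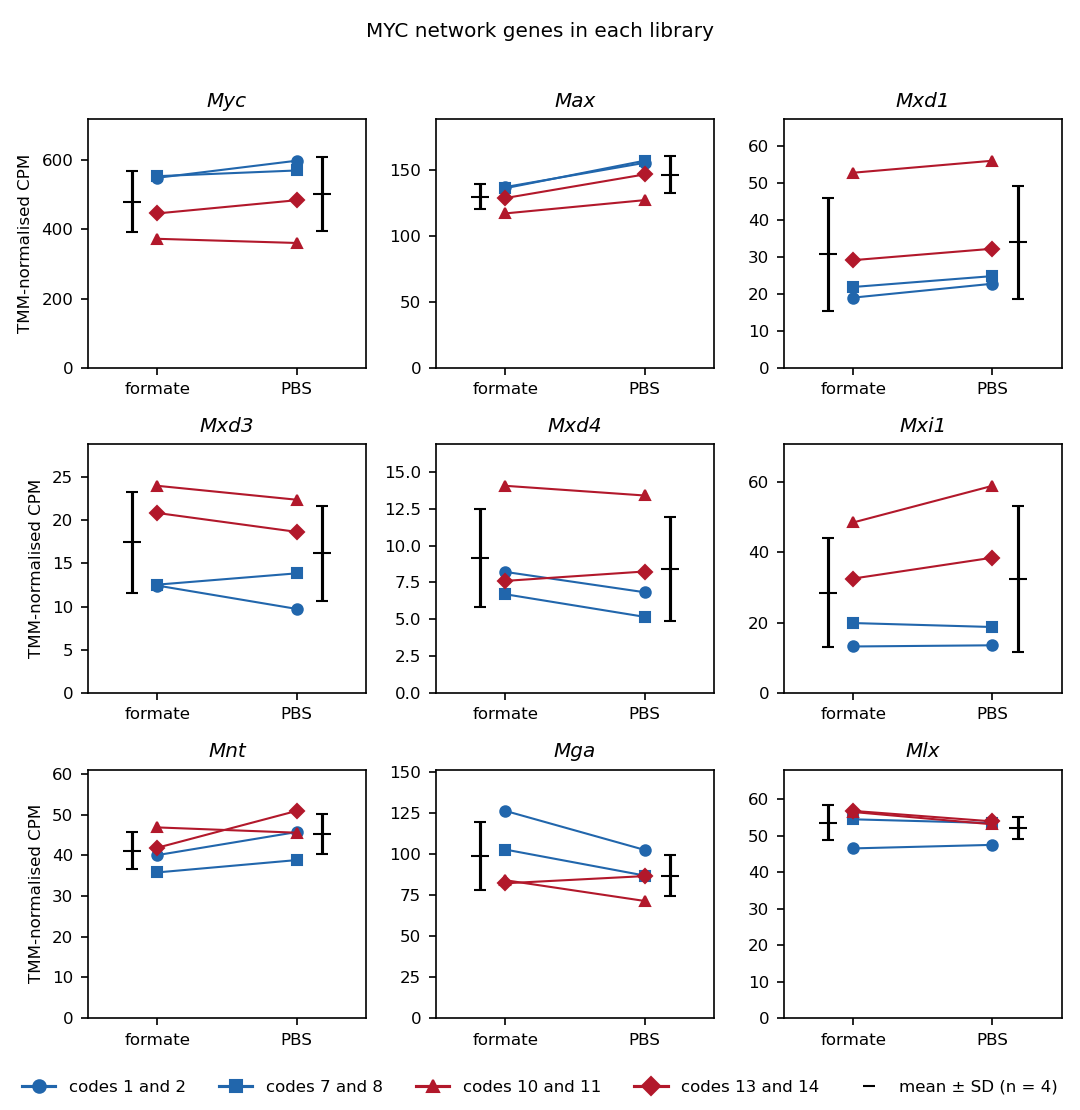
TMM-normalised CPM of the 9 MYC network genes in each library, formate left and PBS right, with lines joining neighbouring title codes (blue, codes 1 to 8; red, codes 10 to 14) and black bars for the mean ± SD of 4 libraries. Lines are close to level for Myc, slope the same way in all 4 pairs for Max and Mxd1, and red and blue libraries lie apart for Mxi1, Mxd1 and Mxd3.

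Myc, the growth-promoting member of the network (chromosome 15, 61985391 to 61990374, GRCm38, plus strand), had 372, 446, 548 and 553 CPM in formate libraries 1 to 4, against 360, 484, 598 and 569 CPM in PBS libraries 1 to 4. The groups overlapped, and the low libraries of both groups were those with codes 10 to 14. The log2 change was -0.07 (SE 0.18, edgeR adjusted p = 0.998), with a 95% interval from -0.49 to 0.35. Pairing the neighbouring codes narrowed the interval to -0.16 to 0.040 around -0.06 (SE 0.05, edgeR adjusted p = 0.433). Myc was lower with formate in 3 of 4 pairs, and higher by 0.047 on the log2 scale in codes 10 and 11.

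The obligate partner Max (chromosome 12, 76937269 to 76962201, minus strand) had 117, 129, 137 and 136 CPM with formate and 127, 147, 156 and 157 CPM with PBS. Each formate library was below its neighbour, with log2 differences of -0.18 (codes 1 and 2), -0.20 (7 and 8), -0.12 (10 and 11) and -0.19 (13 and 14). A decrease in all 4 pairs was shown by 19.5% of all genes tested. The group ranges overlapped, as the lowest PBS library, code 10, lay below 3 of the formate libraries. Within codes 1 to 8 both formate libraries lay below both PBS libraries.

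Means of Max were 130 ± 9.26 CPM with formate and 147 ± 13.7 CPM with PBS (SD, n = 4 each). The change was -0.18 unpaired (SE 0.10, edgeR adjusted p = 0.998) and -0.17 paired (SE 0.04, edgeR adjusted p = 0.0171), and it ranked 766 of 13299 genes by p in the paired fit. The paired call was lost without codes 1 and 2 (-0.16, edgeR adjusted p = 0.119), 7 and 8 (-0.16, 0.0840) or 13 and 14 (-0.17, 0.0643), within codes 10 to 14 alone (-0.14, 0.394), and with library size as the only scaling (-0.14, 0.0559). It was kept in the other 7 alternatives run, with adjusted p values of 0.00514 to 0.0312. The mitochondrially encoded share of counts was higher with formate in every pair, at 0.560% to 0.906% with formate and 0.414% to 0.566% with PBS, and its part in the Max result was not tested.

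**Figure D2:**
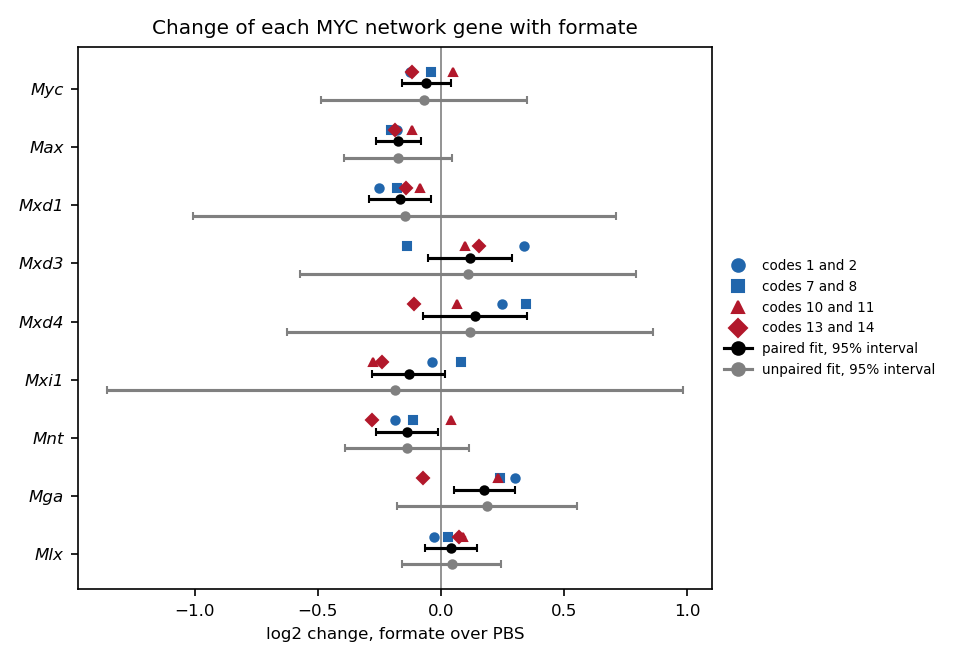
The log2 change of each MYC network gene, formate over PBS, in each pair of neighbouring title codes (coloured symbols), with the paired estimate and its 95% interval in black and the unpaired estimate and its 95% interval in grey. The paired interval of Max, from -0.26 to -0.082, lies wholly below 0, as do those of Mxd1 (-0.29 to -0.040) and Mnt (-0.27 to -0.011). That of Mga, from 0.052 to 0.30, lies wholly above 0. These intervals are not adjusted for the number of genes, and 28.3% of all genes had a paired p under 0.05 before adjustment (edgeR). All 9 unpaired intervals include 0.

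Among the MAX partners that oppose MYC, Mxd1 was lower with formate in 4 of 4 pairs without passing. MXD1 is the founding member of its family and is induced in differentiating cells. Its levels were 52.8, 29.1, 19.0 and 21.9 CPM with formate and 56.0, 32.2, 22.8 and 24.8 CPM with PBS. The spread between libraries of a group exceeded the difference between the groups, and the paired change was -0.17 (SE 0.06, edgeR adjusted p = 0.0773). Unpaired, it was -0.15 (SE 0.38), with a 95% interval from -1.01 to 0.71.

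Mnt, the broadly expressed antagonist whose protein occupies MAX in cycling and resting cells alike, had 46.9, 41.9, 40.1 and 35.8 CPM with formate and 45.6, 50.9, 45.7 and 38.8 CPM with PBS. It was lower with formate in 3 of 4 pairs, and the groups overlapped. The paired change of -0.14 (SE 0.06) did not pass (edgeR adjusted p = 0.140), and with offsets for GC content it was -0.099 (0.308).

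Mxi1 had 48.5, 32.5, 13.2 and 19.9 CPM with formate, against 58.9, 38.5, 13.5 and 18.7 CPM with PBS. Its product is a MAX partner that recruits SIN3, like MXD1. The direction differed between the libraries: the 2 pairs with codes 10 to 14 were lower with formate (-0.28 and -0.24), and those with codes 1 to 8 were at -0.034 and 0.082. The paired change was -0.13 (SE 0.07, edgeR adjusted p = 0.230). Within codes 1 to 8 alone it was 0.021 and within codes 10 to 14 alone -0.25, and the difference between them was not tested.

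Mxd3, a family member known from proliferating cells in S phase, had 24.0, 20.8, 12.4 and 12.5 CPM with formate and 22.4, 18.6, 9.73 and 13.8 CPM with PBS. Mxd4, whose product is a MAX-pairing repressor known from differentiating cells, had 14.1, 7.61, 8.22 and 6.70 CPM with formate and 13.4, 8.25, 6.84 and 5.17 CPM with PBS. For both genes the library with the highest value came from codes 10 and 11, and 3 of 4 pairs were higher with formate. The paired changes were 0.12 (SE 0.08, edgeR adjusted p = 0.351) for Mxd3 and 0.14 (SE 0.10, 0.394) for Mxd4. Mxd3 lies on chromosome 13 (55325168 to 55329823) across from Prelid1, which overlaps it on the opposite strand, and the strand setting of the counting is not given in the sources used here, so reads of the overlap are uncertain. Mlx overlaps Psmc3ip in the same manner. Predicted genes overlap Mxd4 and Mxi1 on the opposite strand, with the same uncertainty. Others overlap Max and Mxd1 on the same strand, where no strand setting would separate any reads shared in the overlap. Estimated counts carried a fraction in 56.7% of entries above 0, but those of Max and Mxd1 were integers in all 8 libraries. Whether these 2 genes shared reads with the genes that overlap them was not tested.

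Mga encodes the largest protein of the network, which carries a T-box as well as the MAX-pairing domain and takes part in the Polycomb complex PRC1.6. It had 84.0, 82.1, 126 and 103 CPM with formate and 71.4, 86.5, 102 and 86.9 CPM with PBS. Formate was higher in 3 of 4 pairs, the exception being codes 13 and 14 (-0.074), and the groups overlapped. The paired change was 0.18 (SE 0.06, 95% interval 0.052 to 0.30), and it did not pass (edgeR adjusted p = 0.0595).

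Mga passed in 5 of 12 alternatives to the paired fit. These were no filter on low counts (0.17, edgeR adjusted p = 0.0201), upper quartile scaling (0.20, 0.0364), library size only (0.21, 0.0374), the fit without codes 13 and 14 (0.26, 0.0204) and that within codes 1 to 8 (0.27, 0.00943). With GC offsets the change was 0.13 (0.145). The mean GC content of its annotated transcripts, 44.5%, was the lowest of the members.

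The second hub, Mlx, had 56.6, 56.9, 46.6 and 54.6 CPM with formate and 53.2, 54.0, 47.5 and 53.5 CPM with PBS. The paired change was 0.041 (SE 0.05, edgeR adjusted p = 0.644), with a 95% interval from -0.066 to 0.15. The libraries with codes 1 and 2 were the lowest of their groups, and the groups overlapped. Of the MLX partners outside the 9 genes, Mlxip had 60.6 ± 9.15 CPM with formate and 57.3 ± 12.9 CPM with PBS (SD, n = 4 each) and did not pass (paired 0.092, edgeR adjusted p = 0.345). Mlxipl was near the floor, at 0.388 ± 0.110 and 0.370 ± 0.0780 CPM (paired adjusted p = 0.949).

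The MYC paralogs were scarce in these cells. Mycn, which serves the role of MYC in some progenitor cells, had 1.38 ± 0.362 CPM with formate and 1.49 ± 0.386 CPM with PBS (SD, n = 4 each; paired edgeR adjusted p = 0.797). Mycl, at 0.140 ± 0.188 and 0.299 ± 0.211 CPM, did not pass the filter on low counts.

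To compare genes with each other, CPM were divided by the mean length of the annotated transcripts of each gene (CPM per kb). Myc was the most abundant, at 283 ± 51.4 CPM per kb with formate and 297 ± 62.9 with PBS (SD, n = 4 each). Max followed with 136 ± 9.71 and 154 ± 14.4, and Mlx with 47.6 ± 4.27 and 46.2 ± 2.69 CPM per kb. The ranges of these genes over the 8 libraries did not overlap each other or any other member.

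Mnt, Mga, Mxi1, Mxd1 and Mxd3 then lay between 12.8 and 22.7 CPM per kb in PBS means, with overlapping ranges, so that their order is not resolved. Mxd4 was lowest at 3.50 ± 1.28 with formate and 3.22 ± 1.36 with PBS. Dividing by the longest transcript instead kept Myc, Max and Mlx as the top of the order and raised the share of Myc in the summed PBS level of the 9 members to 59.5%, against 50.2% with the mean length.

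**Figure D3:**
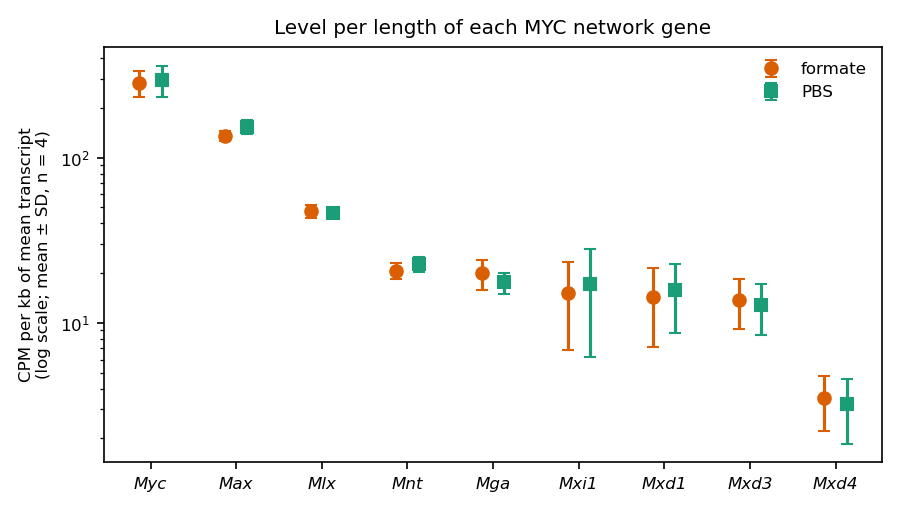
Level of each MYC network gene per kb of mean annotated transcript length, on a log axis, as mean ± SD of 4 formate libraries (orange circles) and 4 PBS libraries (green squares). Myc, Max and Mlx stand above the 6 genes for MAX-pairing repressors, and formate and PBS means lie within 1 SD of each other for every gene except Max.

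The level of Myc per length was set against the summed level of Mxd1, Mxd3, Mxd4, Mxi1 and Mnt in each library, as a description of the network's balance. Myc was 2.24, 3.70, 6.62 and 6.39 times the antagonist sum in formate libraries 1 to 4, and 2.07, 3.62, 6.92 and 6.24 times in PBS libraries 1 to 4. Values of the 2 treatments were close within each pair, while libraries with codes 10 to 14 lay well below those with codes 1 to 8. Myc was 1.79, 1.95, 2.25 and 2.28 times Max with formate and 1.59, 1.86, 2.16 and 2.04 times Max with PBS, and this ratio was higher with formate in 4 of 4 pairs. Max itself was higher with formate in 0 of 4 pairs and Myc in 1 of 4, so this is not a result apart from that of Max. Both ratios depend on the length used. With the longest transcript Myc was 3.32, 5.38, 9.64 and 9.43 times the antagonist sum with formate and 3.12, 5.43, 10.4 and 9.17 times with PBS, and it was 2.64 to 3.37 times Max with formate and 2.35 to 3.19 times Max with PBS. The sets kept the same order with that length.

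Between the library sets the ratios of mean CPM ran wider, from 0.733 to 2.73, than those between the treatments. Mxi1 had 32.5 to 58.9 CPM in codes 10 to 14 and 13.2 to 19.9 CPM in codes 1 to 8, 2.73 times as much on average. Mxd1 had 29.1 to 56.0 CPM in codes 10 to 14 and 19.0 to 24.8 CPM in codes 1 to 8, and Mxd3 had 18.6 to 24.0 and 9.73 to 13.8 CPM. In contrast, Myc had 360 to 484 CPM in codes 10 to 14 and 548 to 598 CPM in codes 1 to 8, a ratio of 0.733, and Mga 71.4 to 86.5 and 86.9 to 126 CPM.

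These 5 members had ranges that did not overlap between the sets, 3 of them higher and 2 lower in codes 10 to 14. Over all genes tested this held for 33.9%, with 16% higher and 17.9% lower. Ranges overlapped for Mxd4, whose mean was 1.61 times as high in codes 10 to 14, for Max (0.887), for Mnt (1.15) and for Mlx (1.09). Each set holds both treatments, so the split does not follow the treatment, and no test was made of it. The markers of CD8 T cells summed to 2776 to 3127 CPM in codes 10 to 14 and 2669 to 2749 CPM in codes 1 to 8, those of CD4 T cells to 22.2 to 29.6 and 32.6 to 47.8 CPM, those of NK and innate lymphoid cells to 97.8 to 139 and 63.3 to 89.9 CPM, and those of stromal cells to 20.3 to 24.5 and 17.8 to 19.5 CPM. These 4 sums had ranges that did not overlap between the sets, while the B cell, myeloid and erythroid sums and the mitochondrial share overlapped. The CD4 list did not follow its sum: its median log2 difference was 0.29, and 2 of 6 genes had a lower mean in codes 10 to 14. Il2 was a large part of that sum, at 14.9 ± 12.8 CPM with formate and 13.1 ± 10.8 CPM with PBS (SD, n = 4 each). Most of the stromal sum was Pecam1, and nearly all of the NK and innate lymphoid sum was Klrk1. The part of these sums in the difference between the sets was not tested. In bulk RNA fewer cells of a type and less RNA per cell cannot be told apart.

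**Figure D4:**
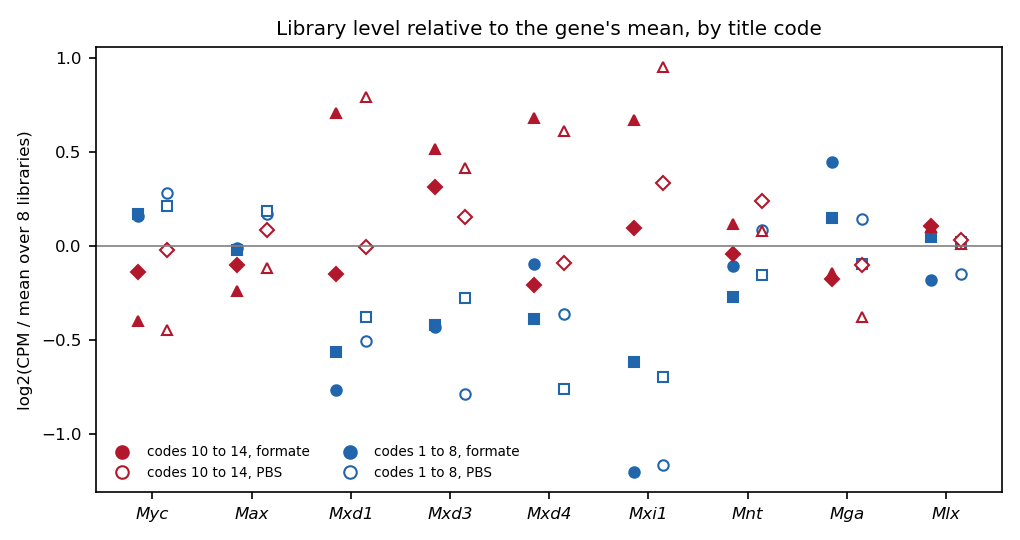
Each library's CPM relative to the gene's mean over 8 libraries, on a log2 scale, for the 9 MYC network genes (formate filled and left, PBS open and right; red, codes 10 to 14; blue, codes 1 to 8; symbol shape, pair as in the plot of CPM by library). Red symbols lie above blue ones for Mxd1, Mxd3 and Mxi1 and below them for Myc and Mga.

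Genes that MYC is known to induce were also set side by side between the library sets. Of 40 such targets, 20 were lower and 3 higher in codes 10 to 14 with ranges that did not overlap, beside 17.9% and 16% of all genes, and their median log2 difference between sets was -0.34 (0.0074 over all genes tested). Of 11 tested genes that MYC is known to repress, 6 were higher and 2 lower, with a median of 0.39. Chosen after their values were seen, Ndrg1 (a stress-induced gene repressed by MYC) had 81.9 to 198 CPM in codes 10 to 14 and 26.6 to 34.3 CPM in codes 1 to 8, and Cdkn1b (the CDK inhibitor p27) 63.7 to 99.9 and 27.7 to 36.5 CPM. Chosen likewise, Cad, which starts pyrimidine synthesis, had 238 to 370 and 419 to 629 CPM, and Txnip, a sugar-sensing target of MLX dimers, 107 to 175 and 65.6 to 75.4 CPM. Of 3 tested MLX targets 1 was higher in codes 10 to 14 with ranges that did not overlap, and 2 overlapped. Ranges also overlapped for 2 genes chosen in this manner. These were Btg1, repressed by MYC (219 to 301 and 242 to 263 CPM), and Tfrc, induced by it (782 to 859 and 852 to 885 CPM).

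Genes most like Myc over the 8 libraries, by Pearson correlation of log2 CPM, were Mettl13 (0.996), Atad3a (0.996), Kics2 (0.996), Ppargc1b (0.995) and Slc19a1 (0.995), out of 9163 named genes averaging 5 CPM or more. Mettl13 methylates elongation factor eEF1A, Atad3a encodes a mitochondrial inner membrane ATPase and Slc19a1 the reduced folate carrier. Pcmtd2 (-0.993) and Tmem9 (-0.992) were among the most opposite genes. These values are descriptions, and each is taken over the same 8 libraries, which fall into the 2 sets. After the mean of each pair was removed, which leaves 1 free value per pair, the genes most like Myc were Gcn1, Ints1, Ints14, Synrg and Naa50 (0.994 to 0.9995), none of them on the first list.

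For the other members the closest genes were Pcbp1 (0.982) and Hnrnpf (0.979) for Max, both RNA-binding proteins. Ggta1 (0.996) and Bhlhe40 (0.995), a transcription factor of effector T cells, were closest to Mxd1. Ndrg2 (0.997) and Fzd7 (0.996) were closest to Mxi1, Tmub2 (0.996) and Lsm10 (0.994) to Mxd3, and Kremen1 (0.986) and Pitpnc1 (0.980) to Mxd4. Brd1 (0.958) and Irf2bpl (0.916) came nearest to Mnt, Topbp1 (0.988) to Mga, and Idi1 (0.989) and Spryd7 (0.986) to Mlx.

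Around the network, more of the listed targets that MYC induces fell than rose with formate in the paired fit. This list was chosen with earlier results of these data known, so the counts are a description. Of 40, 11 fell, 3 rose and 26 did not pass, beside 7.52% of all genes lower and 5.35% higher. The median paired change was -0.06, beside -0.0031 over all genes tested and -0.11 over the tested genes that MYC is known to repress. Over the other scalings, DESeq2, GC offsets and the fit with no filter, 10 to 15 fell and 2 to 3 rose. Counts for this list are not given for fits without a pair or within a library set. None passed in the unpaired edgeR fit, where 1 had a p under 0.05 before adjustment, or in unpaired DESeq2. Hspd1, the mitochondrial chaperonin, had 1097 ± 330 CPM with formate and 1365 ± 409 CPM with PBS (paired log2 change -0.31, edgeR adjusted p = 0.00173). Its partner Hspe1, chosen after its values were seen, rose by 0.20 (0.0209). Apex1, a DNA repair endonuclease, fell by 0.27 (edgeR adjusted p = 0.00385) and Ncl, nucleolin, by 0.40 (0.000799), whereas the glutamine transporter gene Slc1a5 rose by 0.27 (0.00316). Odc1, a classical E-box target for polyamine synthesis that was also chosen after its values were seen, did not pass (-0.055, 0.467).

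Of 12 coactivator genes for MYC, 2 fell and 10 did not pass, beside 7.52% of all genes lower. Ruvbl1, an AAA+ ATPase of the TIP60 complex, had 153 ± 33.2 CPM with formate and 180 ± 31.1 CPM with PBS (paired -0.24, edgeR adjusted p = 0.00501). Cdk9, the kinase of the elongation factor P-TEFb, fell by 0.15 (0.0335). Of 15 SIN3 and histone deacetylase corepressor genes used by MXD and MNT proteins, 0 passed in edgeR or DESeq2, and 7 had an edgeR p under 0.05 before adjustment, as had 28.3% of all genes. With GC offsets or with no filter 2 passed, both lower, and with library size as the only scaling 1 passed, higher. The lowest p values were those of Sap130 (-0.20, adjusted p = 0.0569) and Hdac2 (-0.14, 0.0595).

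Of 9 partners of MGA in PRC1.6, 1 rose and 8 did not pass, beside 5.35% of all genes higher and 7.52% lower. E2f6, its E2F-family repressor, had 48.5 ± 4.67 CPM with formate and 41.3 ± 7.0 CPM with PBS (paired 0.24, SE 0.06, edgeR adjusted p = 0.0200), and was higher in 4 of 4 pairs, as were 16% of all genes. Germline genes that this complex silences were almost absent: of 12, only Tdrkh passed the filter on low counts, at 9.09 ± 1.53 CPM with formate and 9.19 ± 0.382 CPM with PBS (paired -0.026, edgeR adjusted p = 0.896).

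Among 16 genes that act on MYC protein stability, 2 fell, 1 rose and 13 did not pass, beside 7.52% of all genes lower and 5.35% higher. Cip2a, which protects MYC from protein phosphatase 2A, had 109 ± 3.64 CPM with formate and 98.1 ± 2.54 CPM with PBS (paired 0.16, edgeR adjusted p = 0.0271). Gsk3a, a kinase that marks MYC for degradation, fell by 0.16 (0.0263), and the ubiquitin ligase gene Trim32 by 0.22 (0.0415). The ligase gene Fbxw7, chosen after its values were seen, had -0.18 (0.0552).

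Of 11 tested genes repressed by MYC, 2 fell, 1 rose and 8 did not pass, beside 7.52% of all genes lower and 5.35% higher. Their median paired change was -0.11, beside -0.0031 over all genes tested. Cdkn1b rose by 0.22 (edgeR adjusted p = 0.0228), and Gadd45b, a stress and growth-arrest gene, and Ndrg2 fell by 0.24 (0.00619) and 0.19 (0.0395). Of the targets of MLX dimers 3 were tested and 0 passed in edgeR or DESeq2 (0 with an edgeR p under 0.05 before adjustment): G6pc3 had a paired change of -0.13 (adjusted p = 0.184) and Txnip one of 0.040 (0.733).

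Under the other scalings, DESeq2, GC offsets and no filter, 1 to 3 coactivator genes fell, and 1 PRC1.6 gene rose while 0 to 1 fell. For MYC stability 0 to 3 genes fell and 0 to 1 rose, and of the genes repressed by MYC 1 to 4 fell and 0 to 2 rose.

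**Figure D5:**
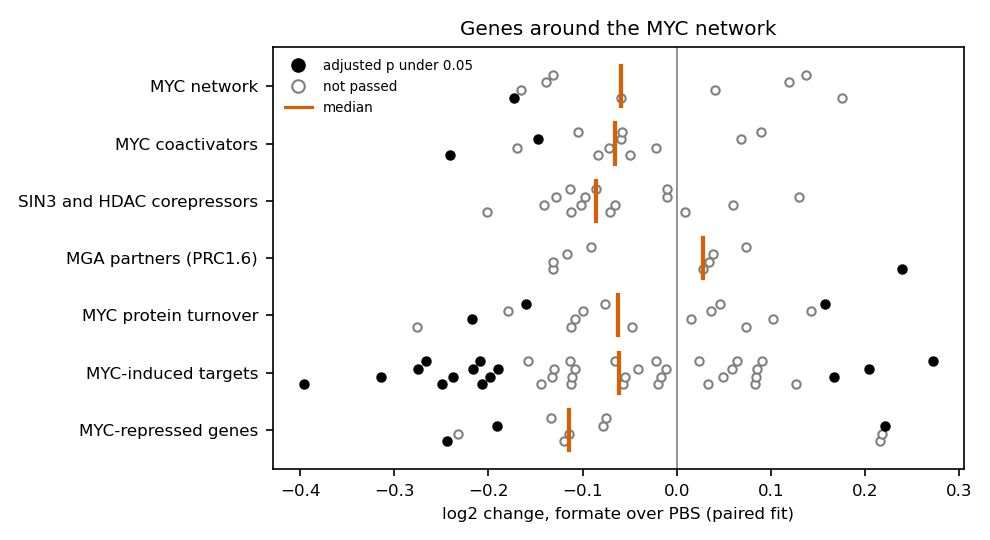
Paired log2 change, formate over PBS, of the tested genes in the MYC network and 6 related gene lists (filled, adjusted p under 0.05; open, not passed; orange bar, median of the list). Most points lie within 0.3 of 0. The MYC-induced targets, the longest list with 40 genes, hold the most filled points, 11 below 0 and 3 above. Over all genes tested 12.9% were called.

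Markers of other cells were compared between treatments as summed CPM, in a family of 10 measures with totals and shares (exact two-sided permutation tests, for which the smallest possible p is 0.0286). B cell markers summed to 208 to 220 CPM with formate and 212 to 228 CPM with PBS (exact permutation p = 0.143, adjusted 0.57), with Ighm as most of the sum, and 1 of 10 tested genes, Ms4a1, rose (paired edgeR adjusted p = 0.0275), where 0 passed with DESeq2 or with GC offsets. Myeloid and dendritic markers were at 35.7 to 62.1 and 43.4 to 63.5 CPM, and NK and innate lymphoid markers at 63.3 to 129 and 64.7 to 139 CPM, nearly all of it Klrk1, which CD8 T cells also express. CD4 T cell markers had 22.2 to 47.8 and 24.9 to 45.3 CPM, stromal markers 17.8 to 23.6 and 17.8 to 24.5 CPM, and erythroid and platelet markers 0.0807 to 0.650 and 0.0854 to 0.189 CPM. Pecam1 was most of the stromal sum, and Il2 a large part of the CD4 sum. CD8 T cell markers summed to 2699 to 2833 CPM with formate and 2669 to 3127 CPM with PBS, and 1 of 10 tested genes, the receptor-proximal kinase gene Zap70, fell by 0.17 (paired edgeR adjusted p = 0.0195), where 0 passed with library size as the only scaling or with GC offsets. Of the tested genes of the CD4, NK, myeloid and stromal lists 0 passed in the paired fit with edgeR or DESeq2, and 1 (myeloid) had an edgeR p under 0.05 before adjustment. The paired edgeR fit called 12.9% of all genes tested. Pf4 and Cdh5, which mark platelets and endothelium, were at 0 in all libraries. No measure of the family passed, the smallest p being that of the mitochondrial share (exact permutation p = 0.0571, adjusted 0.57). These tests do not use the pairs. Within the pairs, the B cell sum was lower with formate in 4 of 4, and the mitochondrial share and the share of counts in genes with no symbol (1.34% to 1.65% with formate and 1.22% to 1.48% with PBS) were higher in 4 of 4. The part of these cells in the Max result was not tested.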

How the data were processed

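Libraries of polyA RNA were made with a stranded mRNA kit and read as pairs, per the labels' protocols. The submitters' processing notes list kallisto, Trimmomatic and MultiQC, with no version or role, and the build names GRCm38 and mm10. The authors deposited 1 table of estimated counts (expected counts per gene, not normalised, replicates not pooled). Transcriptome release, strand setting and filters: not given in the sources used here. Of its 35072 genes 8884 carry no symbol, and 34581 identifiers matched GENCODE M21 (GRCm38), the source of coordinates, transcript lengths and GC content.

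Counts were rounded to whole numbers and fitted in R 4.3.3 by the robust quasi-likelihood test of edgeR 4.0.16, after filterByExpr and TMM scaling. Calls are at 0.05 after Benjamini-Hochberg adjustment over all genes. SE is the log2 change divided by the square root of the F statistic, and intervals use its degrees of freedom. Log2 changes by pair are from log2(CPM + 0.5). DESeq2 1.42.0, other scalings, no filter, GC offsets, library sets and fits without each library or pair were the alternatives. The fits were tested on simulated data.

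Groups come from the treatment label, and replicates are numbered in accession order. Deviations from the group means correlated between neighbouring title codes by 0.653, 0.369, 0.656 and 0.370 (codes 1 and 2, 7 and 8, 10 and 11, 13 and 14), over the bound of 0.1 set for the paired fit. The check left in the split between codes 1 to 8 and 10 to 14. Libraries of 1 set can therefore correlate without being pairs, and passing the bound does not establish the pairing. PBS 4 (code 7) correlated best with formate 3 (code 2) and not with its neighbour formate 4. The pairing rests on the codes and not on a stated design. No 2 libraries of a group agreed within sampling noise (smallest chi-square per degree of freedom 22.2).

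The members and gene lists were chosen from knowledge of the pathway with earlier results of these data known. Genes named beside the members are the relatives Mycn, Mycl, Mlxip and Mlxipl, up to 4 called genes per list by smallest p (the 2 smallest where none was called), and the genes closest to each member by correlation (2 of these are not reported here); others are said to be chosen after their values were seen. Ms4a1, Zap70 and the genes at 0 were chosen in that manner too.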

Additional observations from a re-analysis of the deposited data

Results flagged for a closer look

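PBS 3 (code 1) was far from the other PBS libraries for Mlx, at 47.5 CPM where the others had 53.2 to 54.0 CPM, and formate 3, its neighbour, was the lowest formate library with 46.6 CPM. PBS 2 (code 13) was far from the other PBS libraries in the mitochondrially encoded share of counts, at 0.566%. Of 42 groups of 4 values checked for a single distant library, these 2 stood out, and chance alone would mark about 1 in 20.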

How the results depend on the processing

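In the unpaired fit 1 gene was called over all genes, 19 with DESeq2, 0 within codes 1 to 8, 0 within codes 10 to 14, between 0 and 1 without any 1 library, and 1711 with the neighbouring codes as a replicate block, where 1 member was called. With the replicate block, 828 genes were called within codes 1 to 8, 61 within codes 10 to 14 and 337 to 1371 without any 1 pair. The members called in the paired fit were 2 (Max and Mga) with upper quartile scaling, without the filter on low counts and within codes 1 to 8, 0 within codes 10 to 14, and between 0 and 1 without any 1 pair. With library size as the only scaling, and without codes 13 and 14, the member called was Mga in place of Max. The cause was not tested. Without 1 library at a time the unpaired log2 change crossed 0 for Myc (-0.19 to 0.031), Mxd1 (-0.54 to 0.21), Mxd3 (-0.081 to 0.31), Mxd4 (-0.17 to 0.44) and Mxi1 (-0.57 to 0.28), none of which passed in any setting. The extremes came from leaving out formate 1 or PBS 1. Leaving out any library unbalances the library sets, and why these libraries moved the changes most was not tested. Within codes 1 to 8 Mxi1 turned to 0.031 unpaired and 0.021 paired, and Mlx to -0.0031 and -0.0055. Within codes 10 to 14 Mxd4 turned to -0.0054 in the paired fit. Max, Mnt and Mga kept their direction in all alternatives of both fits. The longest transcript in place of the mean moved the share of Myc among the members to 59.5%. The lowest estimated count of a member was 153 (Mxd4, PBS 4). Mxd4 and Mxd3, the members with the lowest mean CPM, had the largest paired SE (0.10 and 0.08, against 0.04 for Max). The part of depth in this was not tested.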
